A study of Mus musculus with 28 samples.

Results

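The PERK-ATF4 branch of the integrated stress response was followed through 9 genes in choroid plexus taken from the lateral ventricles of male mice, out of 27179 genes counted. The genes were taken as a named list and matched by symbol to their Entrez identifiers. They are the sensor kinase Eif2ak3 (PERK), the transcription factors Atf4, Atf5 and Ddit3 (CHOP), the feedback genes Ppp1r15a (GADD34) and Trib3, and the effectors Asns, Chac1 and Sesn2. All 9 matched 1 identifier each, and the question was whether their mRNA follows the time of day. On GRCm38 (mm10), Eif2ak3 (Entrez 13666) lies at chr6:70844484-70905241, Atf4 (11911) at chr15:80255184-80257545, Atf5 (107503) at chr7:44812256-44816658 and Ddit3 (13198) at chr10:127290793-127296291. Ppp1r15a (17872) lies at chr7:45522917-45526268 and Trib3 (228775) at chr2:152337425-152344060. Asns (27053) lies at chr6:7675165-7693209, Chac1 (69065) at chr2:119351242-119354326 and Sesn2 (230784) at chr4:132492804-132510456.

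The study holds 28 poly(A) RNA-seq libraries of this tissue in 7 groups of 4. J20-positive (J20+) mice of 12 to 14 months, and wild-type littermates of the same age, were sampled at night, zeitgeber time (ZT) 18, or at day, ZT 6, where ZT 0 is lights on. The young cohort was C57/BL6 wild-type, aged 3 to 4 months, and was taken at night, at ZT 6 after 6 h of sleep disruption, or at day without it. As background, J20 mice express a human APP bearing Alzheimer's disease mutations, driven by the PDGFB promoter, which is active mainly in neurons. All mice were perfused with buffered saline under isoflurane, and the young libraries are batch 1 and the aged libraries batch 2, so age and batch cannot be told apart. Replicate numbers follow the order of the sample records, and p-values measure the spread between these libraries.

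In this pathway, unfolded protein in the endoplasmic reticulum (ER) activates PERK, which phosphorylates the translation factor eIF2alpha. General protein synthesis then falls while the Atf4 mRNA is translated more, and ATF4 switches on genes of amino acid supply, redox balance and, through CHOP, cell death. The choroid plexus epithelium secretes cerebrospinal fluid and much secreted protein, which loads its ER. ATF4 and ATF5 are controlled largely at translation, which mRNA counts do not measure.

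Total counts ran from 14.6M to 43.9M per library. Each of 10 choroid epithelium markers averaged at least 1 CPM in every group, where CPM is a gene's count scaled to the library's total, with a summed level of 25437 to 44786 CPM per library. The clock gene Arntl ran at 10.5 to 40.2 CPM in J20+ night against 5.16 to 17.8 CPM in J20+ day libraries, 17.2 to 25.97 CPM in aged wild-type night against 6.36 to 10.2 CPM in aged wild-type day libraries, and 24.9 to 40.3 CPM in young night against 5.27 to 6.45 CPM in young day libraries. Mouse App ran at 564 to 1906 CPM in J20+ night and 882 to 1575 CPM in aged wild-type night libraries, which does not check the human transgene. J20+ night library 2 and J20+ day library 1 stood apart from their groups in choroid epithelium markers (mean log2 CPM of 9.91 and 10.4, against 10.97 to 11.2 in the other J20+ libraries). All 4 aged wild-type night libraries lay below the 4 aged wild-type day libraries in these markers (9.97 to 10.5, against 10.8 to 11.3). In that cohort this difference cannot be told apart from time of day. In bulk tissue, fewer cells of a type and less RNA per cell cannot be told apart.

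Promoter windows of the 9 genes (RefSeq, GRCm38.p6, from 250 bases before to 50 after the start of transcription) were searched on both strands for 6 short motifs. The C/EBP-ATF response element (CARE), the composite site that ATF4 binds with C/EBP proteins, was written TGATGNAA, and the ER stress response element (ERSE), bound by ATF6 with NF-Y, was written with its CCAAT and CCACG parts 9 bases apart. CARE letters lay in 3 of the 9 windows (Trib3, Asns and Chac1) against 4.51% of 27025 genes, and in 0 of 27 ER chaperone, XBP1 and ER degradation genes with a window. The exact ERSE letters lay in 0 of the 9 windows, in 8 of those 27 and in 0.137% of genes. Ppp1r15a held the cAMP response element TGACGTCA (2.03% of genes), 6 of 9 held CCAAT (41.1% of genes), and none of the 9 held the E-box CACGTG (8.09% of genes) or the D-box TTANGTAA (2.72% of genes), both of which clock factors bind. A match is only of letters, and a window without one says nothing of the factor. The sequences below show the CARE of 3 ATF4 targets, the cAMP response element of Ppp1r15a, and the ERSE of Hspa5 and Creld2, which are ER chaperone genes with night-day results below. Capitals mark the motif, on either strand, and each sequence reads 5′ to 3′ along its gene.
Trib3, chr2:152344028-152344057, minus strand: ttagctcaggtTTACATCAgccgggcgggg
Asns, chr6:7693210-7693252, minus strand: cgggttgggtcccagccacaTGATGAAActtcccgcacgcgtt
Chac1, chr2:119351029-119351076, plus strand: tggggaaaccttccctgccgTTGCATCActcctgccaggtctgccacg
Ppp1r15a, chr7:45526269-45526290, minus strand: gcctctccggTGACGTCAgcac
Hspa5, chr2:34772005-34772063, plus strand: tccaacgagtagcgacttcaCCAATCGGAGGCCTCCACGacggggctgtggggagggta
Creld2, chr15:88819500-88819558, plus strand: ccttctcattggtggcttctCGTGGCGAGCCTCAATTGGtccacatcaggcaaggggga
Ddit3 is shown over the 150 bases before its start, since it is the 1 gene of the 9 with a night-day call. Its capitals mark the CCAAT box on the other strand, the only exact match to the 6 motifs in its window. On that strand GCACG lies 9 bases after this CCAAT, 1 base off the CCACG part of the ERSE letters. Near matches were not searched in any window.
Ddit3, chr10:127290643-127290792, plus strand: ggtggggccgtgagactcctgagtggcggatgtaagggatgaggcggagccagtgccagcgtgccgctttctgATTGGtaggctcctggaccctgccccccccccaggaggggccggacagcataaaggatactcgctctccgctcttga

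Levels between genes are compared per kilobase of transcript (CPM per kb). In young day libraries Atf4 was highest at 20.8 ± 1.88 CPM per kb (SD, n = 4), followed by Eif2ak3 at 7.90 ± 0.713. Ppp1r15a at 5.05 ± 1.20, Atf5 at 3.88 ± 1.09, Ddit3 at 3.38 ± 0.499 and Asns at 2.87 ± 0.608 CPM per kb came next, with neighbours in that order no further apart than their SDs combined. Sesn2 averaged 1.68 ± 0.317, Trib3 0.130 ± 0.0593 and Chac1 0.0171 ± 0.0211 CPM per kb. In aged wild-type night libraries the order began with Ddit3 at 37.1 ± 8.62 and Atf4 at 33.1 ± 3.05 CPM per kb, which do not differ beyond their spread, and in aged wild-type day libraries with Atf4 at 30.6 ± 3.65 and Ddit3 at 18.1 ± 4.07 CPM per kb. Chac1 had 0 to 3 reads in each of the 12 young libraries (7 reads in all at night, 4 after sleep disruption and 3 at day), so it was filtered out of the young tests and 8 of the 9 genes were tested there.

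**Figure D1:**
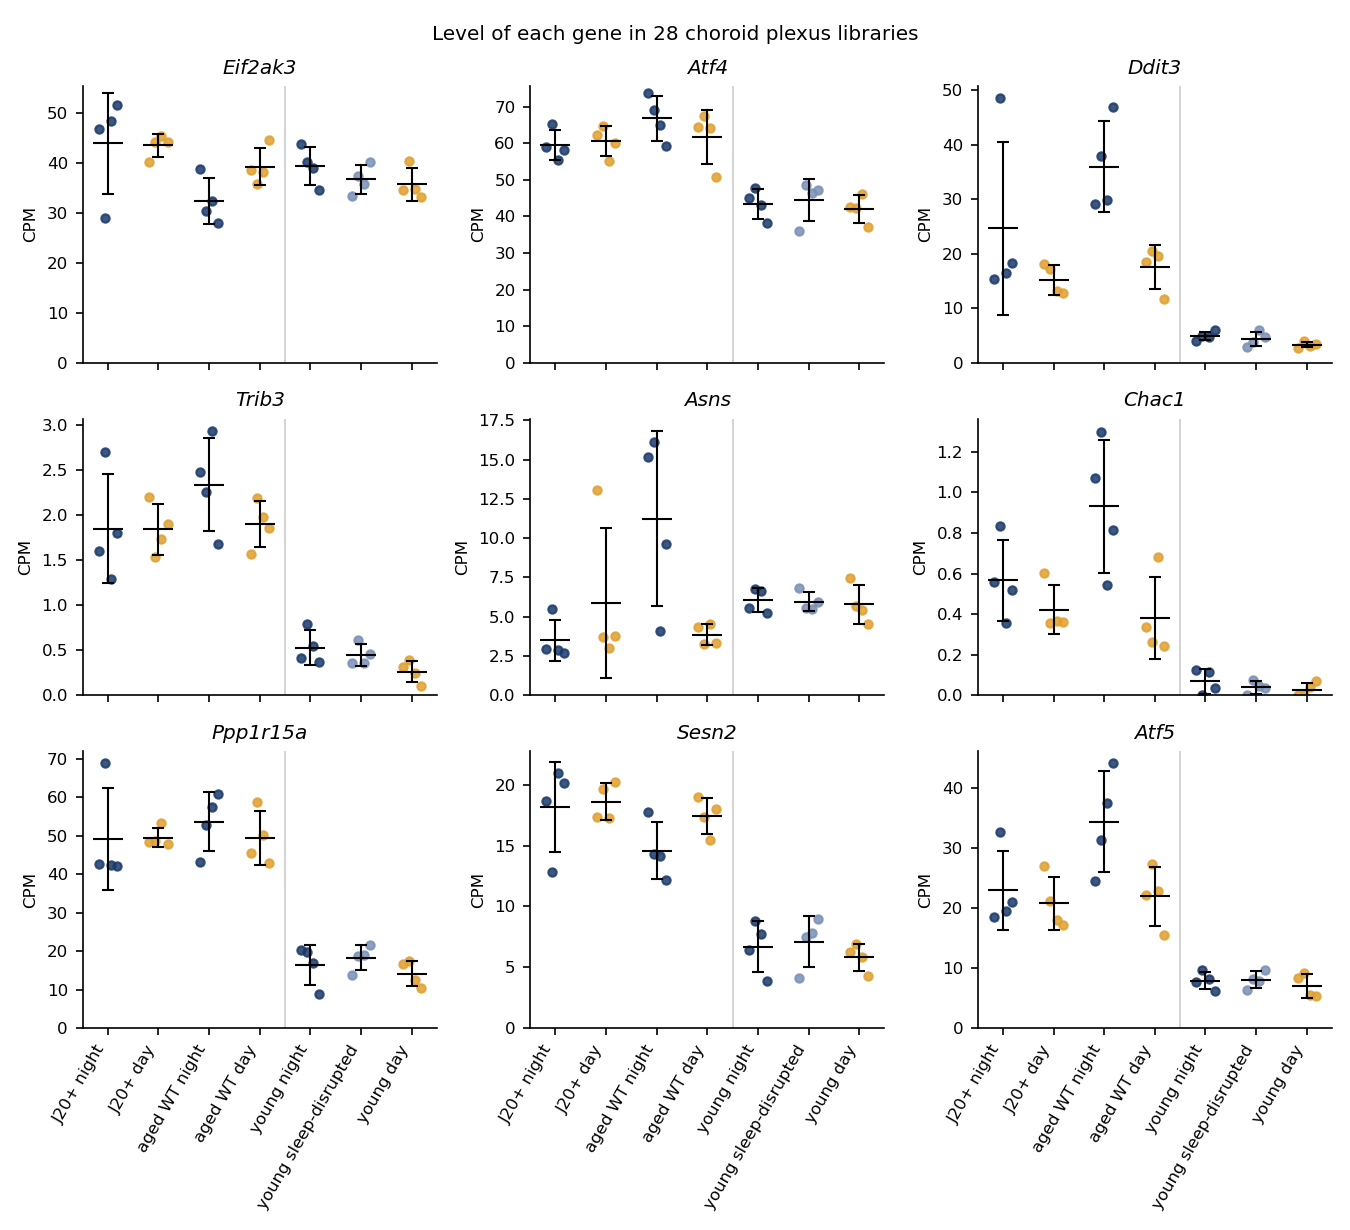
CPM (count scaled to the library total) of the 9 genes in each of the 28 libraries (points), with the mean and SD of each group of 4 (bars). Ddit3 lies at 4.06 to 5.99 CPM in young night and 29.1 to 46.9 CPM in aged wild-type night libraries, above the day libraries of the same cohort in both, while Atf4 and Eif2ak3 overlap between night and day in every cohort.

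In young mice, none of the 8 genes tested passed the adjusted threshold at night. Ddit3, the death-linked transcription factor, and Trib3, a pseudokinase that feeds back on ATF4 and AKT signalling, had the highest night-day values. Ddit3 measured 4.06, 4.83, 4.69 and 5.99 CPM in the 4 young night libraries, 2.86, 3.82, 5.98 and 4.75 CPM after sleep disruption and 2.76, 3.90, 3.07 and 3.35 CPM at day. Every night library lay above every day library, and the sleep-disrupted libraries spanned both. The night-day difference of Ddit3 was 0.54 ± 0.22 in log2 units (SE, 4 libraries per group), or 1.46-fold, with an adjusted p of 0.470 in edgeR's quasi-likelihood test.

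Trib3 was low, with 0.410, 0.794, 0.542 and 0.367 CPM (10 to 23 reads) in young night, 0.362, 0.617, 0.354 and 0.461 CPM in sleep-disrupted and 0.312, 0.390, 0.243 and 0.107 CPM (3 to 11 reads) in young day libraries. Night and day overlapped, since 1 day library lay above 1 night library. Its log2 difference was 0.97 ± 0.36 (adjusted p = 0.432).

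The sensor and the central factor moved by less. Eif2ak3 measured 43.8, 40.2, 39.0 and 34.6 CPM at night, 33.3, 37.3, 35.8 and 40.2 CPM after sleep disruption and 34.5, 40.4, 34.7 and 33.1 CPM at day in young mice. Atf4 measured 45.04, 47.8, 43.0 and 38.1 CPM at night, 36.0, 48.5, 46.3 and 47.1 CPM after sleep disruption and 42.6, 42.2, 46.2 and 37.0 CPM at day. All 3 conditions overlapped for both genes. The 95% interval of the young night-day log2 difference ran from -0.19 to 0.20 for Atf4 and from -0.06 to 0.26 for Eif2ak3.

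Asns, which makes asparagine, averaged 6.06 ± 0.787 CPM in young night, 5.95 ± 0.599 CPM in sleep-disrupted and 5.78 ± 1.23 CPM in young day libraries. Ppp1r15a, the phosphatase subunit that reverses eIF2alpha phosphorylation, averaged 16.4 ± 5.28 CPM in young night, 18.3 ± 3.22 CPM in sleep-disrupted and 14.2 ± 3.37 CPM in young day libraries. Sesn2, a sestrin that restrains mTORC1, averaged 6.70 ± 2.13 CPM in young night, 7.10 ± 2.11 CPM in sleep-disrupted and 5.83 ± 1.10 CPM in young day libraries. Atf5, a transcription factor that the pathway induces, averaged 7.91 ± 1.46 CPM in young night, 8.03 ± 1.41 CPM in sleep-disrupted and 7.05 ± 1.97 CPM in young day libraries. The conditions overlapped for each of these 4 genes.

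Over the young night-day comparison, 0 of 8 genes passed an adjusted p of 0.05 in edgeR, against 0.267% of the 14983 genes tested, and 2 (Ddit3 and Trib3) had an unadjusted p under 0.05, as did 1407 of all genes. DESeq2 and limma-voom also called 0. All 8 log2 differences were above 0, with a median of 0.14, beside 53.9% and 0.02 over all genes. The sign of 4 of the 8 (Atf4, Ppp1r15a, Sesn2 and Atf5) turned when the GC trend of each library (how its log2 counts change with the GC content of transcripts) was a covariate, an alternative chosen after seeing the data. Over all alternatives the sign of Atf4 turned in 10 of 20 and that of Asns in 6 of 19. Macrophage markers summed to 83.3 to 242 CPM in young night, 60.7 to 87.3 CPM in sleep-disrupted and 60.9 to 123 CPM in young day libraries, and their part in these values was not tested. Sleep disruption against young day called 0 of 8 genes (0% of all genes), with 0 at an unadjusted p under 0.05 and 0 by DESeq2 and limma-voom, and Ddit3 at 0.34 ± 0.22 and Trib3 at 0.72 ± 0.36. Night against sleep disruption called 0 of 8 (0.38% of all genes, with 0.187% higher and 0.194% lower) by each of the 3 tools, with 0 at an unadjusted p under 0.05 and Ddit3 at 0.21 ± 0.22. Both comparisons share libraries with the young night-day one and are not independent of it.

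In aged wild-type mice, Ddit3 was again higher at night in every library. It measured 29.1, 38.0, 29.8 and 46.9 CPM in aged wild-type night and 18.5, 20.5, 19.5 and 11.8 CPM in aged wild-type day libraries, without overlap. Its log2 difference was 0.85 ± 0.26, or 1.80-fold, with an adjusted p of 0.144. The choroid epithelium markers had a median log2 difference of -0.82 in the same comparison (0 of 10 above 0), and with their score as a covariate Ddit3 was at 0.22, with the GC trend at 0.28. In J20+ mice it measured 15.4, 48.5, 16.4 and 18.2 CPM at night and 18.04, 17.2, 13.06 and 12.7 CPM at day. Those groups overlapped, and the log2 difference of 0.68 ± 0.26 (adjusted p = 0.652) was 0.29 without J20+ night library 2, the one at 48.5 CPM.

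Asns and Chac1, a glutathione-degrading enzyme, had the highest night-day values in aged wild-type mice. Asns measured 15.2, 16.1, 4.07 and 9.64 CPM at night and 4.32, 3.24, 4.52 and 3.32 CPM at day in aged wild-type libraries, a log2 difference of 1.34 ± 0.43 (adjusted p = 0.144). Of the 4 night libraries, 3 lay above all day libraries, and the other lay among them. In J20+ mice it measured 2.98, 5.47, 2.91 and 2.70 CPM at night and 13.05, 3.73, 2.99 and 3.80 CPM at day, a log2 difference of -0.65 ± 0.42. Chac1 measured 1.07, 1.30, 0.542 and 0.813 CPM in aged wild-type night and 0.337, 0.265, 0.681 and 0.244 CPM in aged wild-type day libraries, with overlap (1.10 ± 0.37, adjusted p = 0.144).

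The libraries with high Asns and Chac1 also had high neural markers. Over the 16 aged libraries, with group means removed, the mean log2 CPM of neuron, oligodendrocyte and astrocyte markers had a Pearson r of 0.728 (Spearman rho 0.694) with Asns and 0.748 (rho 0.697) with Chac1. The permutation p-values of r were 0.00125 and 0.00087, adjusted p-values 0.00482 and 0.00470 over 27 relations, and r was 0.689 and 0.739 without the 2 libraries farthest from the median. Of the 28 neural markers all averaged at least 1 CPM in aged wild-type night libraries, with summed levels of 146 to 1071 CPM for neurons, 743 to 6135 CPM for oligodendrocytes and 876 to 1895 CPM for astrocytes, against 82.2 to 204, 137 to 2787 and 507 to 1028 CPM at day. With this marker score as a covariate the aged wild-type night-day log2 differences were 0.41 for Asns and 0.55 for Chac1, the lowest of their alternatives. The neural score also had an r of -0.666 with Eif2ak3 (adjusted permutation p = 0.0245) and -0.638 with Sesn2 (0.0313). The choroid marker score had an r of -0.610 with Asns and -0.563 with Chac1 (adjusted permutation p = 0.0313 each). The part of neural tissue in these levels was not tested.

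Eif2ak3 and Sesn2 had negative values in aged wild-type mice, which turned positive with the choroid score (0.19 and 0.16) or the GC trend as a covariate. Eif2ak3 measured 38.8, 30.3, 32.4 and 27.9 CPM at night and 38.5, 35.7, 38.1 and 44.5 CPM at day, a log2 difference of -0.47 ± 0.23 (adjusted p = 0.164). Sesn2 averaged 14.6 ± 2.32 CPM at night and 17.5 ± 1.48 CPM at day, a log2 difference of -0.45 ± 0.22 (adjusted p = 0.166). In J20+ mice Eif2ak3 averaged 43.9 ± 10.1 CPM at night and 43.5 ± 2.24 CPM at day, and Sesn2 averaged 18.2 ± 3.69 CPM at night and 18.6 ± 1.54 CPM at day.

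Atf5 averaged 34.3 ± 8.43 CPM in aged wild-type night and 21.9 ± 4.89 CPM in aged wild-type day libraries (0.47 ± 0.18, adjusted p = 0.144, and -0.25 with GC correction). Atf4 averaged 66.8 ± 6.15 CPM at night and 61.7 ± 7.36 CPM at day there. Ppp1r15a averaged 53.6 ± 7.70 CPM at night and 49.3 ± 7.03 CPM at day, and Trib3 2.34 ± 0.518 CPM at night and 1.90 ± 0.256 CPM at day. Scaled by the trimmed mean of M values (TMM), which the tests use, the differences of Atf4 and Ppp1r15a were -0.07 ± 0.11 and -0.07 ± 0.14, so their sign rests on the scaling. In J20+ mice Atf4 averaged 59.5 ± 4.07 CPM at night and 60.6 ± 4.10 CPM at day, and Ppp1r15a 49.1 ± 13.3 CPM at night and 49.5 ± 2.46 CPM at day. Trib3 averaged 1.85 ± 0.606 CPM at night and 1.84 ± 0.280 CPM at day in J20+ mice. Atf5 averaged 22.9 ± 6.57 CPM at night and 20.8 ± 4.45 CPM at day, and Chac1 0.568 ± 0.200 CPM at night and 0.422 ± 0.121 CPM at day. Night and day overlapped for each of these 5 genes in J20+ mice.

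Of 9 genes, 0 were called by edgeR between aged wild-type night and day, against 0.0124% of all genes, with 4 (Ddit3, Asns, Chac1 and Atf5) at an unadjusted p under 0.05, as were 5002 of 16065 genes. This test also called 0 of 10 clock genes, with 5 higher and 3 lower at an unadjusted p under 0.05. Of these 10, edgeR called 3 higher and 4 lower at night in young mice, and 2 higher and 2 lower in J20+ mice. A lack of calls in aged wild-type mice therefore says little about time of day. Of the 9 genes, DESeq2 called 2 (Ddit3 and Asns), with 1290 of all genes called, and limma-voom 6, with 8312. Without J20+ day library 1 and J20+ night library 2, which share the estimate of spread (left out after seeing the data), edgeR called 6 of the 9 and 7155 of all genes. In J20+ night against day, 0 of 9 were called by each of the 3 tools (0.0436% of all genes in edgeR, with 0.0311% higher), with 1 (Ddit3) at an unadjusted p under 0.05, as were 1191 of all genes.

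Averaged with equal weight over the J20+, aged wild-type and young cohorts, the night level of Ddit3 rose by 0.67 ± 0.14 (log2), or 1.59-fold (95% interval of log2 0.37 to 0.96, edgeR adjusted p = 0.0135). It was the 1 of 9 genes called, against 3.15% of the 16590 genes tested in either direction and 1.52% called higher and 1.63% lower. DESeq2 also called 1 of the 9, with 1629 of all genes called, and limma-voom 3, with 6343. The call was kept in 35 of 37 alternative settings, in which the log2 difference ran from 0.52 to 0.74. It was lost with the choroid marker score as a covariate (0.33, adjusted p = 0.202) and with the GC trend as a covariate (0.51, adjusted p = 0.0672). Without J20+ night library 2 it was 0.53 (adjusted p = 0.00752).

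The other 8 genes were not called in this average. Chac1 was at 0.84 ± 0.38 (adjusted p = 0.148, with the young cohort at 0 to 3 reads per library), Trib3 at 0.36 ± 0.17 (0.169), Atf5 at 0.24 ± 0.11 (0.149) and Asns at 0.21 ± 0.20 (0.477). Ppp1r15a at 0.02 ± 0.11, Atf4 at -0.03 ± 0.06, Sesn2 at -0.10 ± 0.14 and Eif2ak3 at -0.11 ± 0.10 lay nearer to 0. The 95% interval of Atf4 ran from -0.16 to 0.09 and that of Eif2ak3 from -0.32 to 0.09. The night-day change in aged wild-type minus that in young mice was called for 0 of 9 genes by edgeR and DESeq2 (0% of all genes in edgeR, 2 at an unadjusted p under 0.05, as were 2877 of all genes) and for 3 by limma-voom, which called 5943 of all genes, with Ddit3 at 0.29 ± 0.35.

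**Figure D2:**
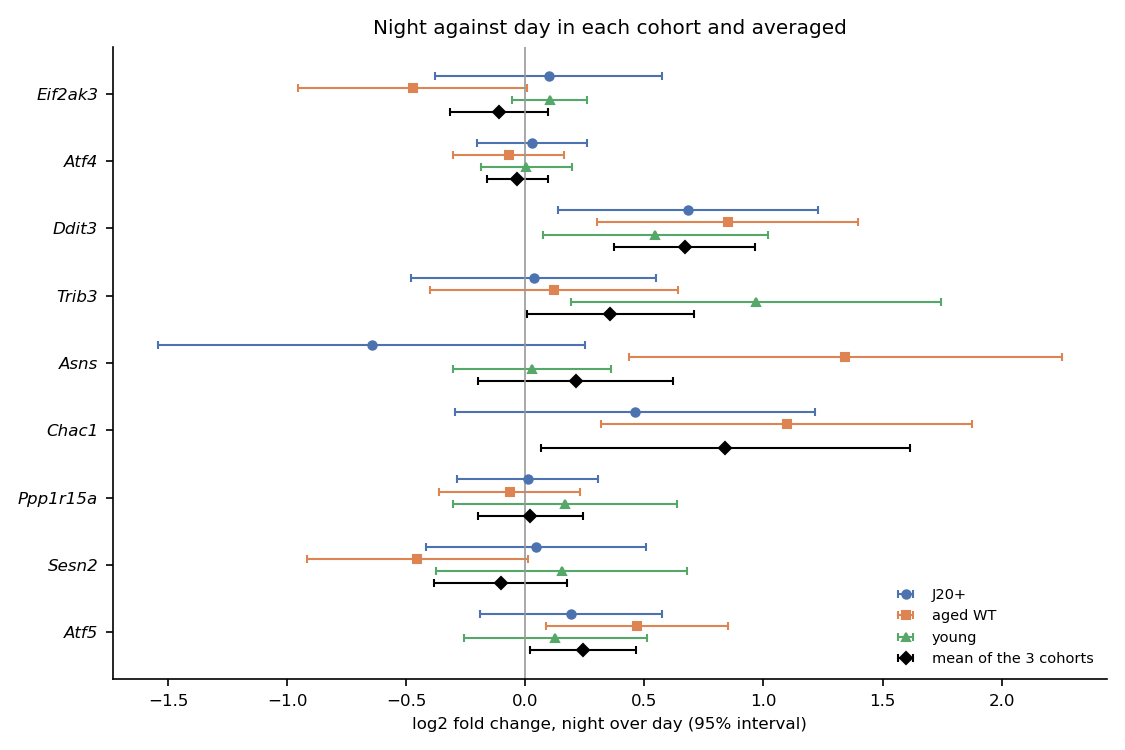
Log2 fold change of night over day with its 95% interval for the 9 genes in J20+, aged wild-type (WT) and young mice (4 mice per group) and averaged over the 3 cohorts. Ddit3 lies at 0.68, 0.85 and 0.54 in the 3 cohorts and at 0.67 in the average, while the averages of Atf4 and Eif2ak3 are -0.03 and -0.11.

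The branch was set beside the rest of the stress response through gene lists. In the cohort average, 0 of 3 other eIF2alpha kinases were called, with Eif2ak2 (PKR, which senses double-stranded RNA) at -0.42 ± 0.14 (adjusted p = 0.0832). Of 16 genes for eIF2, eIF2B and their regulators 0 were called, with a median of -0.22 (0.01 over all genes) and the exchange factor subunit Eif2b3 at -0.22 ± 0.06 (adjusted p = 0.0507). Of 6 partner transcription factors 0 were called, and Cebpb, a partner of ATF4 and CHOP, was at 0.93 ± 0.27 (adjusted p = 0.0537). At an unadjusted p under 0.05, 1 of the 3 kinases and 7 of the 16 eIF2 genes were lower, and of the partner factors 1 was higher and 1 lower, beside 4759 of 16590 genes in either direction.

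Among ATF4 target groups in that average, 0 of 13 amino acid synthesis genes were called, with 2 higher and 1 lower at an unadjusted p under 0.05 and the transaminase Gpt2 at 0.23 ± 0.07 (adjusted p = 0.0712). Of 10 amino acid transporters 1 rose, Slc38a7, a glutamine transporter of the lysosome, by 0.47 ± 0.13 (adjusted p = 0.0401). Of 13 tRNA synthetase and export genes 1 fell, the leucyl-tRNA synthetase Lars, by 0.33 ± 0.07 (adjusted p = 0.0108). Of 15 stress output genes tested 1 rose, Herpud1, an ER membrane protein of ER-associated degradation, by 0.44 ± 0.12 (adjusted p = 0.0467).

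The ER folding lists held more calls. In young night against day, 5 of 16 ER chaperone genes rose, with a list median of 0.41 against 0.02 over all genes, and 2 of 17 genes of the XBP1 arm and ER-associated degradation rose (median 0.15). Of all genes, 0.14% were called higher there. Hspa5 (BiP), the main ER chaperone, ran at 2188 to 2617 CPM in young night against 1329 to 1642 CPM in young day libraries (0.65 ± 0.12, adjusted p = 0.0454), and Manf, a secreted ER stress protein, at 161 to 196 CPM in young night against 86.1 to 104 CPM in young day libraries (0.87 ± 0.08, adjusted p = 2.10e-04). Xbp1, the factor spliced by IRE1, ran at 193 to 252 CPM at night against 119 to 133 CPM at day (0.80 ± 0.09, adjusted p = 0.0021). The others called were the chaperones Sdf2l1 (0.84 ± 0.11), Creld2 (0.94 ± 0.13) and Hyou1 (0.89 ± 0.13) and the ER degradation adaptor Sel1l (0.35 ± 0.06). In young night against sleep disruption, which shares the night libraries, Manf (0.84), Creld2 (0.83), Hyou1 (0.84), Hspa5 (0.73) and Sdf2l1 (0.72) of the chaperones and Xbp1 (0.78) and Sel1l (0.43) of the XBP1 list were called higher. Cdkn1a, a cell cycle inhibitor in the stress output list, was called higher there too (0.75 ± 0.10, adjusted p = 0.00574). Sleep disruption against day called 0 genes of either ER list, with 0 at an unadjusted p under 0.05. In aged wild-type night against day 0 of the 16 chaperones were called (median -0.36, with 2 higher and 4 lower at an unadjusted p under 0.05), and in J20+ night against day 0 (median 0.14, with 4 higher). Of the 17 genes of the XBP1 list 0 were called in either, with medians of -0.27 in aged wild-type and 0.14 in J20+ mice. In the cohort average Creld2 (0.89 ± 0.12), Manf (0.77 ± 0.11) and Sdf2l1 (0.54 ± 0.12) of the chaperones and Xbp1 (0.69 ± 0.09), Syvn1 (0.74 ± 0.15) and Derl3 (0.94 ± 0.24) of the XBP1 list were called higher. The list medians in this average were 0.04 for the chaperones (9 of 16 above 0) and -0.04 for the XBP1 list (7 of 17). The median over all genes was 0.01, and 1.52% of all genes were called higher. The difference between these lists and the 9 genes was not tested.

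**Figure D3:**
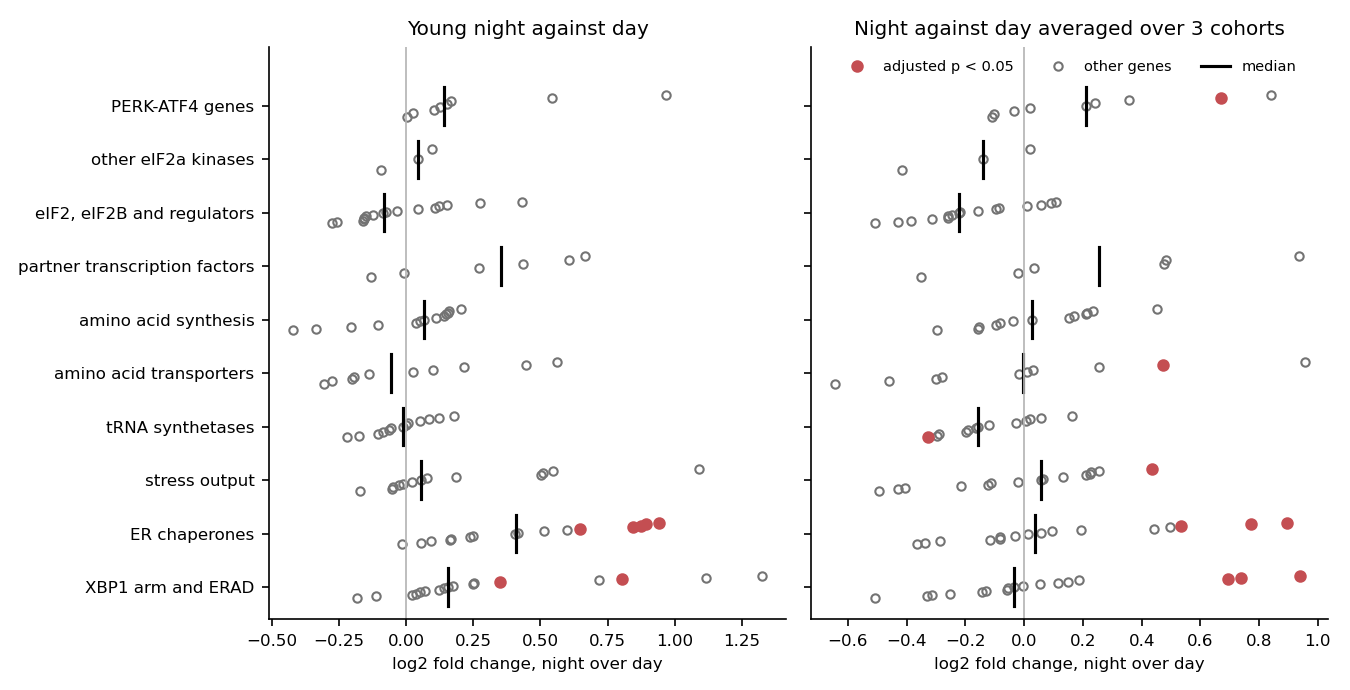
Log2 fold change of night over day for each gene of 10 lists, in young mice (left) and averaged over 3 cohorts (right), with filled red points for an adjusted p under 0.05 and a black bar at each list's median. In young mice the called genes are 5 ER chaperones and 2 genes of the XBP1 list, and none of the PERK-ATF4 genes is filled there.

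Between genotypes, the 9 genes were compared at each time. At day, 0 of 9 were called by each of the 3 tools between J20+ and aged wild-type mice (0% of all genes in edgeR, 0 at an unadjusted p under 0.05), with Ddit3 at -0.22 ± 0.26 and Asns at 0.51 ± 0.42. At night 0 of 9 were called by edgeR (0.00622% of all genes), 2 by DESeq2 (3044 of all genes called) and 6 by limma-voom (11588 called), with 4 at an unadjusted p under 0.05, as were 5129 of 16065 genes. Eif2ak3 was at 0.70 ± 0.23 and Asns at -1.48 ± 0.43 in J20+ over aged wild-type night (adjusted p = 0.0917 each), and Sesn2 was at 0.57 ± 0.22 (0.106). Cell type markers had, in the same comparison, median log2 differences of 0.75 for choroid epithelium, -2.86 for neurons, -3.06 for oligodendrocytes and -2.05 for astrocytes. Eif2ak3 was at 0.14 and Sesn2 at 0.06 with the choroid score as a covariate, and Asns was at -0.50 with the neural score. Without J20+ night library 2, 5 of the 9 were called and 9414 of all genes. The night-day change in J20+ minus that in aged wild-type mice was called for 0 of 9 genes by edgeR and DESeq2 (0% in edgeR, 1 at an unadjusted p under 0.05, as were 1992 of all genes) and for 3 by limma-voom, which called 5382 of all genes. Asns was at -1.99 ± 0.60 (adjusted p = 0.359).

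Levels were higher in aged than in young libraries for most of the branch, but age is the same as batch and 67.7% of all genes were called between aged wild-type and young day. In that comparison, added after the levels were seen, 7 of 9 genes were called higher (35.2% of all genes) and 1, Asns, lower (32.5%). Ddit3 averaged 17.6 ± 3.94 CPM in aged wild-type day and 3.27 ± 0.484 CPM in young day libraries (2.11 ± 0.26), and Trib3 1.90 ± 0.256 CPM in aged wild-type day and 0.263 ± 0.120 CPM in young day libraries (2.56 ± 0.32). Chac1 had 26 reads in the 4 aged wild-type day libraries and 3 in the 4 young day libraries. The log2 differences of Ppp1r15a, Atf5 and Sesn2 were 1.51 ± 0.19, 1.34 ± 0.19 and 1.30 ± 0.24, that of Atf4 was 0.25 ± 0.11, and that of Asns was -0.88 ± 0.35. A correction of each library for GC content turned Sesn2, Atf5 and Atf4 to lower in aged wild-type day, at -0.81, -1.18 and -1.20, and ended the calls of Ppp1r15a (0.03), Trib3 (0.57), Chac1 and Asns (-0.52). The call of Atf4 was lost in 8 of 21 alternatives and that of Asns in 5 of 20, most of them leaving out 1 library. Ddit3 kept its call under all 21 alternatives, at 2.00 to 2.80.

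From mouse to mouse within a group, the 9 genes did not move as 1 unit. With group means removed, 1 of 28 pairs in the 12 young libraries and 7 of 36 pairs in the 16 aged libraries had an adjusted permutation p under 0.05 for Pearson's r. In young mice the pair was Sesn2 and Atf5 (r = 0.743, rho = 0.664, permutation p = 9.70e-04, adjusted p = 0.0272, r = 0.706 without the 2 farthest libraries). In aged mice Eif2ak3 moved with Sesn2 (r = 0.947, rho = 0.906, permutation p = 5.00e-05, adjusted p = 0.0018, r = 0.870 without 2). Ddit3 moved against both, with r of -0.903 for Eif2ak3 (rho = -0.856, permutation p = 0.00356, adjusted p = 0.0276, -0.856 without 2) and -0.823 for Sesn2 (rho = -0.729, permutation p = 0.00949, adjusted p = 0.0488, -0.690 without 2). Positive relations also linked Ddit3 with Atf5 (r = 0.709, adjusted permutation p = 0.0268), Atf4 with Sesn2 (0.686, 0.0276) and Asns with Chac1 (0.685, 0.0144). Eif2ak3 and Atf5 moved against each other (-0.670, 0.0302). The share of all gene pairs at this threshold was not computed. With a prior count of 0.5 the adjusted p of Ddit3 and Sesn2 was 0.0501, which left 6 of 36 pairs. The median r was 0.25 over the young and -0.16 over the aged pairs.

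The same genes followed measures of the whole library in aged mice. The GC trend had an r of 0.943 with Ddit3 (rho = 0.882, permutation p = 0.00087, adjusted p = 0.00470, 0.895 without 2), -0.968 with Eif2ak3 (rho = -0.926, permutation p = 4.00e-05, adjusted p = 0.00108, -0.937 without 2) and -0.913 with Sesn2 (rho = -0.838, permutation p = 4.80e-04, adjusted p = 0.00432, -0.801 without 2). The choroid marker score had an r of -0.823 with Ddit3 (rho = -0.691, permutation p = 0.00817, adjusted p = 0.0245, -0.749 without 2), 0.943 with Eif2ak3 (rho = 0.8294, permutation p = 0.00121, adjusted p = 0.00482, 0.863 without 2) and 0.928 with Sesn2 (rho = 0.862, permutation p = 4.60e-04, adjusted p = 0.00432, 0.830 without 2). The GC trend was 0.143 to 0.368 in aged wild-type night against -0.275 to 0.0511 log2 per 10% GC in aged wild-type day libraries, so it differed with time of day there. The transcripts of Ddit3, Eif2ak3 and Sesn2 hold 45.6%, 51.2% and 58.7% GC. In young libraries the GC trend had an r of -0.130 with Ddit3 (rho = -0.014, permutation p = 0.704, adjusted p = 0.805, -0.117 without 2), and the 3 genes with an adjusted p under 0.05 were Ppp1r15a, Sesn2 and Atf5, with r of 0.927 (rho = 0.839, permutation p = 9.70e-04, adjusted p = 0.0106, 0.815 without 2), 0.908 (rho = 0.769, permutation p = 4.20e-04, adjusted p = 0.0101, 0.804 without 2) and 0.791 (rho = 0.762, permutation p = 0.00132, adjusted p = 0.0106, 0.770 without 2). With the GC trend as a covariate the Ddit3 night-day difference was 0.57 in young, 0.28 in aged wild-type and 0.46 in J20+ mice. In the cohort average the Ddit3 call was lost with that covariate and kept with GC correction. The part of GC content in these levels was not tested.

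**Figure D4:**
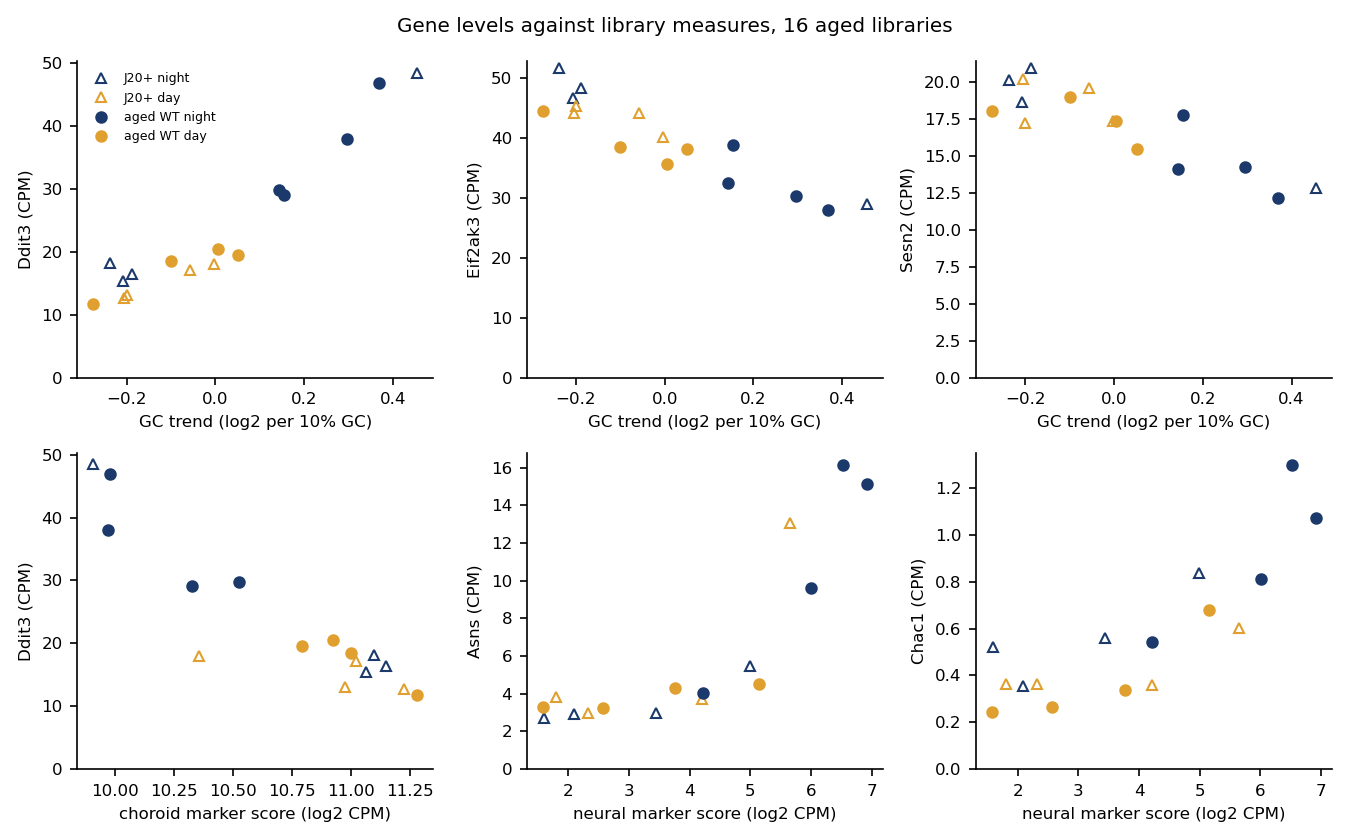
Levels (CPM) of Ddit3, Eif2ak3, Sesn2, Asns and Chac1 in the 16 aged libraries against the GC trend (log2 per 10% GC) and the mean log2 CPM of choroid or neural markers, with triangles for J20+ and circles for aged wild-type mice and dark blue for night. The J20+ night library at 48.5 CPM of Ddit3 has the highest GC trend (0.455) and the lowest choroid score (9.91).

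Genes whose levels ran most like each member but Chac1, which was filtered out in young libraries, over the 12 young and 16 aged libraries, with group means removed, were searched among 12957 genes with at least 1 CPM. Ddit3 ran most like Id1, a helix-loop-helix inhibitor of differentiation (r = 0.827 in young and 0.938 in aged libraries), and Per1, a light- and stress-responsive clock gene (0.861 and 0.822). Eif2ak3 ran most like Ddx18 and Gusb (mean r of 0.906 and 0.896), Sesn2 like Myo1d and Tatdn2 (0.936 and 0.935), Ppp1r15a like Pdlim4 and Arhgef16 (0.952 and 0.938) and Atf5 like the ribosomal protein gene Rps12 (0.897). Asns ran most like Ndrg3 and Usp11 (0.842 and 0.840), Trib3 like Prkd2 and Idnk (0.714 and 0.696) and Atf4 like the pseudogene Gm4705 and the chaperone gene Hspa8 (0.730 and 0.696). These r values are the highest of many and share libraries, so they describe likeness alone.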

How the data were processed

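Gene counts were deposited by the authors as raw whole-number read counts per Entrez gene, in a table of 12 young and a table of 16 aged libraries. Per the submitters' processing notes reads were handled with HISAT2 2.2.1 and featureCounts 2.0.1 on build mm10, beside cutadapt, FastQC 0.11.8, Picard 2.18.2 and DESeq2. The strand setting is not given in the sources used here. Of 27179 identifiers 25275 matched a RefSeq symbol (GRCm38.p6), and 217 of 218 list entries were found.

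Counts were filtered with filterByExpr, scaled by TMM and tested with edgeR 4.0.16 (robust quasi-likelihood, R 4.3.3), with Benjamini-Hochberg adjustment over all genes and a threshold of 0.05. Young comparisons used the young libraries, comparisons between aged groups the aged libraries, and the rest all 28. DESeq2 1.42.0, limma-voom 3.58.1, other scalings and filters, marker-score covariates and leaving out each library were alternatives. CPM in the text is per total count. Correlations used log2 CPM (prior count 2) with group means removed and 100000 permutations within groups (pandas 2.3.3, numpy 2.4.6). The fits were tested on simulated data. All 9 genes were described in every comparison, other lists by their called genes and those of smallest p, and likeness by the 2 genes of highest mean r, of which 1 is not reported here. Members and lists were chosen with earlier results of these data known.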

Additional observations from a re-analysis of the deposited data

Results flagged for a closer look

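Of 63 groups of 4 libraries (9 genes in 7 groups), 7 held a library whose gap to its nearest neighbour passed the 95% critical value of Dixon's test, where chance gives about 1 in 20 groups. All 7 were in J20+ groups. J20+ night library 2 was highest for Ddit3 (48.5 CPM), Ppp1r15a (68.9 CPM), Atf5 (32.7 CPM) and Asns (5.47 CPM). It also had the lowest choroid marker score (9.91) and the highest GC trend (0.455) of the 16 aged libraries. J20+ day library 1 was highest for Asns (13.05 CPM) and Chac1 (0.603 CPM), and had the highest neural marker score of the J20+ libraries (5.65). J20+ day library 3 was highest for Ppp1r15a (53.2 CPM) and was the deepest library, at 43.9M counts. The part of these measures in the levels was not tested.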

How the results depend on the processing

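Values recomputed under alternatives numbered 2487, those of the 9 genes together with the counts of all genes called. Of these, 2305 kept their side of the threshold or, for the counts, stayed within 1.5 times, and 112 counts moved further. Gene values lost a call in 18 cases, gained one in 49 and changed sign with a call in 3. Changes of sign without a call were not tallied as reversed. Ppp1r15a in J20+ night against day had them in 15 of 21 alternatives. Of 263 counts of members or pairs called, 245 stayed within 1.5 times. A count that stayed at 0 was tallied as within 1.5 times, and a gene that stayed uncalled as keeping its side. Counts of the 9 genes called changed as follows. Aged wild-type night against day gave 6 with limma-voom, 2 with DESeq2, 2 with only the groups compared and 6 without J20+ day library 1 and J20+ night library 2. J20+ against aged wild-type at night gave 6 with limma-voom, 2 with DESeq2, 5 without that pair and 0 to 5 leaving out single libraries. The J20+ minus aged wild-type change gave 3 with limma-voom and 0 to 3 leaving out single libraries, and the aged wild-type minus young change 3 with limma-voom, 1 with only the groups compared and 2 without the pair. The cohort average gave 3 with limma-voom and 0 with the choroid score or the GC trend as covariate. Aged wild-type against young at day gave 5 with a filter of 10 CPM in 4 libraries and 5 with GC correction, which reversed Atf4 (-1.20), Sesn2 (-0.81) and Atf5 (-1.18). Causes were not tested. Genes called of all tested ran, over the alternatives, from 13 to 2797 (40 as reported) in young night against day, 16 to 1105 (57) in young night against sleep disruption, 2 to 8312 (2) in aged wild-type and 1 to 274 (7) in J20+ night against day, 0 to 2369 (0) and 0 to 11588 (1) in J20+ against aged wild-type at day and at night, 0 to 5382 (0) and 0 to 5943 (0) in the J20+ minus aged wild-type and aged wild-type minus young changes, 200 to 6343 (523) in the cohort average and fell as low as 6126 (11224) in aged wild-type against young at day. GC correction, the GC trend covariate, the pair left out and the age comparison were chosen after seeing the data. No paired analysis was possible because the labels give no replicate numbers. Low counts limit Trib3 and Chac1 in young libraries.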
